A study of Mus musculus with 70 samples.

Results

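The Sprouty and Spred genes encode inhibitors of signalling from receptor tyrosine kinases through Ras, Raf and MEK to the kinase ERK. All 7 mouse genes, Spry1, Spry2, Spry3, Spry4, Spred1, Spred2 and Spred3, were taken by symbol from the 50789 genes of the deposited count table, and all 7 passed the filter on low counts in every tissue. ERK signalling raises the transcripts of several of these genes, and the proteins they encode then damp the pathway, which closes a negative feedback loop. Sprouty proteins act near the receptor, by binding adaptors such as Grb2 and ubiquitin ligases of the Cbl family, and on Raf. Spred proteins bring the Ras GTPase-activating protein neurofibromin to the membrane. Capicua, the product of Cic, is a repressor of transcription that ERK signalling relieves, so that feedback inhibitors of the pathway are among the transcripts it has been described to hold down.

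RNA-seq had been made from 2 knockout lines and a wild type. Cic-S-KO mice lack the short isoform of Capicua and Cic-L-KO mice its long isoform, and the WT mice were littermates pooled from both lines. Lung came from pups at postnatal day 6. Both brain regions, cortex and cerebellum, came from adults aged 12 weeks. Each of the 9 groups held 8 samples, except for 7 in Cic-S-KO cortex and 7 in Cic-S-KO cerebellum, which gave 70 libraries. The labels do not give the strain, the deleted exons, the line from which each WT mouse came or whether the replicates of a group were separate animals, so p-values measure the spread between these samples, which may be technical in part. Lung was batch 1 and both brain regions were batch 2, so tissue, age and batch cannot be told apart between lung and brain, and levels are given side by side without a test.

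Capicua binds an octamer, written TGAATGAA or TGAATGGA, and the closely related TCAATGAA and TCAATGGA. These 4 motifs, none of which contains another, were searched on both strands of the RefSeq promoter windows (GRCm38.p6, 250 bases before to 50 bases after each start). Windows of 5 of the 7 members were used, and no window of Spry3 or Spry4 was searched here. The Spred3 window holds TGAATGAA on the strand of the gene, at chr7:29168650-29168657, and the Spry2 window holds TCAATGAA on the opposite strand, at chr14:105896866-105896873. The windows of Spry1, Spred1 and Spred2 hold none of the 4 motifs. RefSeq starts can differ from those of the GENCODE M21 annotation used for gene positions. There the Spred3 window lies inside the gene, chr7:29158829-29170411, and the Spred1 window lies wholly before the gene's start at chr2:117121374. At least 1 of the motifs is present in 3.84% of all 32851 windows, TGAATGAA in 1.3% and TCAATGAA in 0.749%. The Spred3 and Spry2 windows are shown because they hold a match, and those of Spred2 and Spred1, which hold none, for comparison. Each is printed 5′ to 3′ on the strand of its gene, with matched octamers in capitals. A match is a string of letters and not a measured binding site.
Spred3, chr7:29168598-29168897, minus strand: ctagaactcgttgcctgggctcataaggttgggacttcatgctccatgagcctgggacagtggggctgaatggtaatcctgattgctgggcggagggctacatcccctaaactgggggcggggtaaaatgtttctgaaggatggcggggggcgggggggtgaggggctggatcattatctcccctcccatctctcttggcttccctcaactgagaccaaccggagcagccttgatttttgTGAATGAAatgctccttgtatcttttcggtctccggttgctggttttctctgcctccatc
Spry2, chr14:105896770-105897069, minus strand: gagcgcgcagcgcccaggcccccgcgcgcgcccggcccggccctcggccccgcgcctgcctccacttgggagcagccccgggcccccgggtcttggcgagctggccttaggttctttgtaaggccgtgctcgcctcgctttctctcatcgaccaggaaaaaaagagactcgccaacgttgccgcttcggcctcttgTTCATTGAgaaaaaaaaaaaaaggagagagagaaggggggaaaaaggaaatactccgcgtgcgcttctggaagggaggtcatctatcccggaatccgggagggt
Spred2, chr11:19924192-19924491, plus strand: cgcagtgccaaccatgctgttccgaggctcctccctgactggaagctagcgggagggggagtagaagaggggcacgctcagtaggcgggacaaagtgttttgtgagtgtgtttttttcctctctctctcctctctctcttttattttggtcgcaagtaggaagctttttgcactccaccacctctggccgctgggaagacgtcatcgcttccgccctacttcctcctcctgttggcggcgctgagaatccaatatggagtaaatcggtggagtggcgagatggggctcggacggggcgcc
Spred1, chr2:117120821-117121120, plus strand: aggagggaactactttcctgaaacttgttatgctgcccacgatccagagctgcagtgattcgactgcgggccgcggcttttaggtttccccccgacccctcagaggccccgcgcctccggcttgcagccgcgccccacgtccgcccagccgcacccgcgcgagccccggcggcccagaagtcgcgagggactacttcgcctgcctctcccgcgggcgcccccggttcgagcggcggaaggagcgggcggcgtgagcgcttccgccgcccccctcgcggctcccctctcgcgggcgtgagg

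Libraries held between 17798655 and 35523037 counts over the genes in the table. Genes of chromosome 1 were not analysed here. Cic itself was read beside the labels, but its counts were made per gene and cannot show which isoform was present. In cortex its mean level was 177 ± 9.67 CPM (counts per 1000000 after TMM scaling of libraries; SD, n = 8) in WT, 274 ± 7.96 (SD, n = 7) in Cic-S-KO and 322 ± 17.9 (SD, n = 8) in Cic-L-KO, so that total Cic RNA was not lower in either knockout there. In lung the means were 125 CPM in WT, 155 CPM in Cic-S-KO and 122 CPM in Cic-L-KO. In cerebellum they were 196, 217 and 217 CPM, which did not separate the knockouts. Markers of each labelled tissue were present. In lung, neuron markers summed to between 1.91 and 3.31 CPM in WT, but 1 Cic-S-KO library reached 34.8 CPM. Choroid plexus markers ranged from 15.9 to 3006 CPM among WT cerebellum libraries and from 13 to 1322 CPM among Cic-L-KO cortex libraries.

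The genes lie apart in the genome (GRCm38, GENCODE M21 annotation). Spry1 (ENSMUSG00000037211.12) is at chr3:37639947-37644598 on the plus strand, Spry2 (ENSMUSG00000022114.5) at chr14:105891947-105896819 on the minus strand, Spred1 (ENSMUSG00000027351.14) at chr2:117121374-117182279 on the plus strand and Spred2 (ENSMUSG00000045671.17) at chr11:19924375-20024026 on the plus strand. Spred3 (ENSMUSG00000037239.8), at chr7:29158829-29170411 on the minus strand, lies 3.89 Mb from Cic. Spry4 (ENSMUSG00000024427.6) is on chromosome 18, and Spry3 (ENSMUSG00000061654.3) is annotated on the unplaced scaffold GL456233.1. A pair of members share exon bases with a gene on the opposite strand: Spred3 shares 202 bases with Ggn, and Spry1 shares 710 bases with Gm42922. Whether counting used strand is not given in the sources used here. Ggn had at most 78 counts and Gm42922 at most 33 in any library.

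The makeup of the family differed between the WT tissues. To compare genes, levels were divided by the length of each gene's merged exons, in CPM per kb. In WT lung Spry1 was the most abundant member, at 49.9 ± 12.7 CPM per kb (SD, n = 8), and made up 39.0% ± 4.55 of the summed level of all 7 genes. In WT cortex Spred1 took that place with 49.8 ± 5.09 CPM per kb and 36.7% ± 1.44 of the sum, and in WT cerebellum with 33.9 ± 3.81 CPM per kb and 30.1% ± 1.08. Spry2 and Spred2 followed Spred1 in both brain regions. In cortex they stood at 33.6 ± 3.07 and 31.5 ± 5.21 CPM per kb, which differed by less than their SD. The summed level was similar in size between tissues, at 126 ± 18.2 CPM per kb in WT lung, 136 ± 13.7 in WT cortex and 113 ± 10.9 in WT cerebellum.

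**Figure D1:**
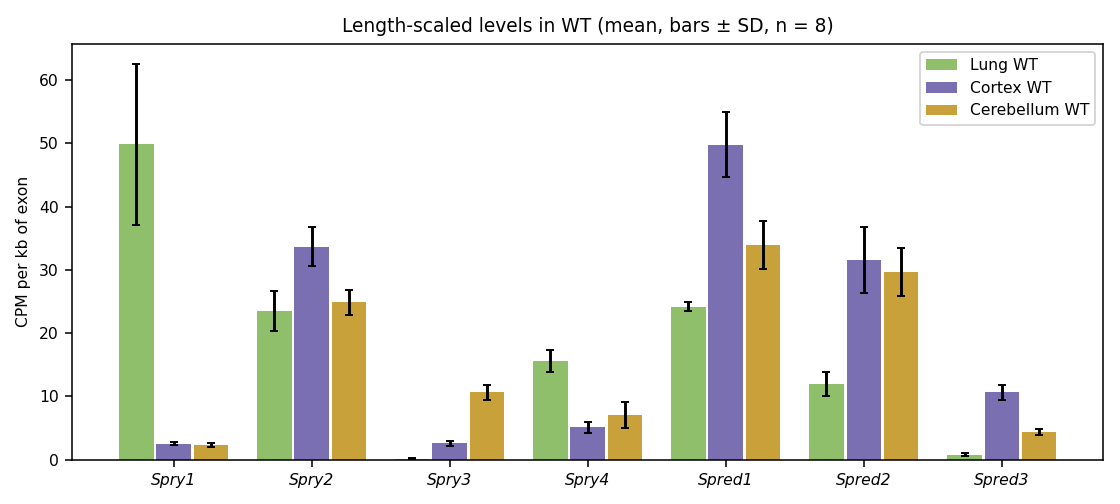
Mean level of each Sprouty and Spred gene in the 3 WT tissues, in CPM per kb of merged exon (vertical axis), with bars for the SD over 8 samples. Spry1 is the tallest bar in lung and Spred1 the tallest in cortex and cerebellum, while Spry3 is lowest in lung at 0.123 CPM per kb.

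Within the brain, 5 of the 7 members differed between WT cortex and WT cerebellum by edgeR's quasi-likelihood test with Benjamini-Hochberg adjustment over 18032 genes, in a comparison in which 73.5% of all genes tested did. Spred3, the Spred protein that lacks a working c-Kit binding domain, was higher in cortex: WT samples ran from 52.1 to 76.1 CPM (median 66.6) in cortex and from 23.3 to 33.2 CPM (median 26.5) in cerebellum, a log2 fold change of 1.28 ± 0.07 (SE, adjusted p = 2.63e-23). Spry3, also an inhibitor of receptor signalling, went the other way, with 8.66 to 13.3 CPM (median 11.3) in cortex and 36.7 to 53.4 CPM (median 45.5) in cerebellum (log2 fold change -2.08 ± 0.08, adjusted p = 1.16e-29). Neither gene's ranges overlapped. Spry2 was also higher in all 8 cortex samples than in any cerebellum sample (log2 fold change 0.41 ± 0.07, adjusted p = 4.18e-07), and Spred1 in 7 of 8 (0.53 ± 0.08, adjusted p = 2.82e-08). Spry4 was lower in cortex, with overlapping ranges (log2 fold change -0.48 ± 0.19, adjusted p = 0.0196), and without cortex WT replicate 4 its adjusted p was 0.0517. Spry1 and Spred2 did not pass, with 95% intervals of the log2 difference from -0.05 to 0.30 and from -0.17 to 0.30. The test treated samples of both regions as independent, which may not hold for Spry4, Spred1 and Spred2, as given below.

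Across the 9 groups the order of levels was set mostly by tissue. Spry1 had means of 127 to 169 CPM in the lung groups and 6.03 to 7.82 CPM in the brain groups, and neighbouring groups within each block overlapped. Spry3 had means of 44.0 to 47.0 CPM in cerebellum, 10.4 to 14.0 CPM in cortex and 0.36 to 0.54 CPM in lung, where each library held only 2 to 29 counts. Spred3 had means of 25.6 to 28.5 CPM in cerebellum and 4.98 to 5.38 CPM in lung. In cortex its WT and Cic-S-KO groups, at 66.2 and 67.0 CPM, overlapped, and its Cic-L-KO group, at 97.2 CPM, was above every other sample. Spred1 ran from 289 to 338 CPM in cortex, 221 to 230 CPM in cerebellum and 151 to 164 CPM in lung. Spred2 was at 113 to 178 CPM in brain and 52.0 to 58.6 CPM in lung, and Spry4 at 66.3 to 76.1 CPM in lung and 21.8 to 39.5 CPM in brain. Spry2 varied least by the ratio of its highest to its lowest group mean, from 42.8 CPM in Cic-S-KO lung to 75.5 CPM in Cic-L-KO cortex, and neighbours in its order overlapped throughout.

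**Figure D2:**
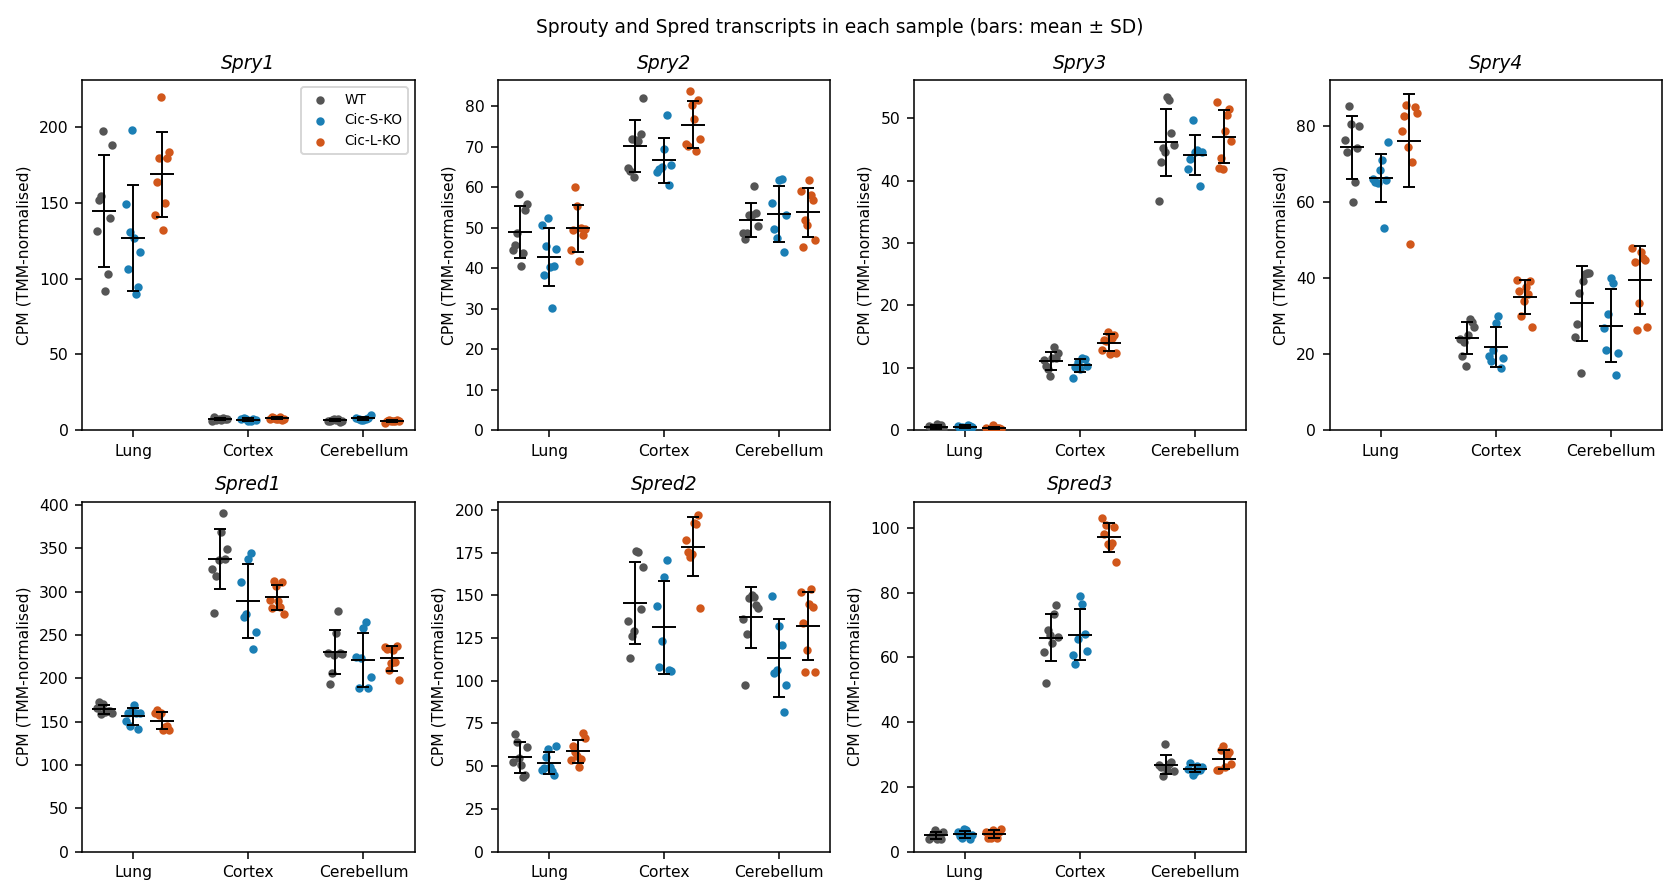
Level of each gene in every sample, in TMM-normalised CPM (vertical axis, from 0), by tissue and genotype, with bars for the mean ± SD of each group of 7 or 8 samples. All 8 Cic-L-KO cortex samples lie above all WT cortex samples for Spred3, and 7 of 8 do for Spry4.

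In cortex, loss of the long isoform was accompanied by higher Spry3, Spry4, Spred2 and Spred3 and lower Spred1. These 5 of 7 members passed the test against WT, 4 higher and 1 lower, where 43.2% of all 16974 genes tested passed, 21.4% higher and 21.9% lower. The median log2 fold change was 0.31 over the 7 members and 0.01 over all genes tested.

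Markers of cell types moved in the same cortex samples. All 4 neuron markers were lower in Cic-L-KO, with a summed level of 3895 to 4686 CPM against 5642 to 6346 CPM in WT. Of the cortical excitatory neuron markers, 2 of the 3 in the table were lower, summing to 1446 to 1727 CPM against 1957 to 2176 CPM. Of 5 endothelial markers 3 were higher, summing to 100 to 136.7 CPM against 69.1 to 121 CPM. None of these markers had a mean under 1 CPM in cortex. Oligodendrocyte markers had 0 of 4 past the threshold, and astrocyte and microglia markers had 1 of 4 higher each. Choroid plexus markers had 0 of 3 past the threshold, but their sum had a median of 416.8 CPM in Cic-L-KO (13 to 1322 CPM) and 26.5 CPM in WT (20.3 to 618 CPM). In whole tissue, fewer cells of a type and less RNA per cell cannot be told apart, and the part of these markers in the results for the Sprouty and Spred genes was not tested.

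Spred3 had the smallest p-value of the 7. Its cortex level ran from 52.1 to 76.1 CPM (median 66.6) in WT and from 89.5 to 103 CPM (median 96.8) in Cic-L-KO. All 8 Cic-L-KO samples exceeded all 8 WT samples. The log2 fold change was 0.57 ± 0.07 (SE; 1.49-fold, adjusted p = 9.1e-08), and the call held in all 10 other settings of the fit and with each of the 23 cortex libraries left out. Spred3 lies near Cic on chromosome 7. Of the 310 genes tested within 10 Mb of Cic, Spred3 among them, 138 passed in the same comparison. This is 44.5%, beside 43.2% of all genes tested.

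Spry4, an inhibitor of Ras and Raf activation, rose by a log2 fold change of 0.55 ± 0.13 (SE; 1.46-fold, adjusted p = 0.00159). WT cortex samples ran from 16.9 to 29.2 CPM (median 24.5) and Cic-L-KO samples from 27 to 39.4 CPM (median 36.2). In 7 of 8 Cic-L-KO samples the level was above the highest WT sample. Spry3 rose by 0.35 ± 0.08 (SE; 1.28-fold, adjusted p = 0.000817), from a WT range of 8.66 to 13.3 CPM (median 11.3) to 12.2 to 15.8 CPM (median 14.3). Of the 8 Cic-L-KO samples, 5 were above all WT samples. Both calls held in all 10 other settings of the fit and with any library left out. A minimum log2 fold change of 0.5, counted apart from these settings, left Spry4 but not Spry3.

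Spred2, which with Spred1 links neurofibromin to the membrane, rose by 0.31 ± 0.12 (SE; adjusted p = 0.0335). Its range was 113 to 176 CPM (median 139) in WT and 143 to 197 CPM (median 179) in Cic-L-KO, and 4 of 8 Cic-L-KO samples lay above all WT samples. Its adjusted p was 0.0664 without the filter on low counts. It went above the threshold, to at most 0.0608, on leaving out any of WT replicates 1, 2, 3 and 4 or Cic-L-KO replicates 1, 5, 6 and 7.

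Spred1 was the member that fell. Its level ran from 275 to 391 CPM (median 337) in WT and from 274 to 312 CPM (median 289) in Cic-L-KO, so the groups overlapped and 1 of 8 Cic-L-KO samples lay below all WT samples. The log2 fold change was -0.19 ± 0.07 (SE, adjusted p = 0.0401). It became -0.11 with an adjusted p of 0.207 after an adjustment for the GC content of genes, and the call was also lost without the filter on low counts and with a mean of at least 50 counts. The same happened on leaving out any of 11 libraries, WT replicates 1, 4, 5, 6, 7 and 8 and Cic-L-KO replicates 1, 2, 5, 6 and 8, with adjusted p up to 0.0979. Without WT replicate 1, WT replicate 4, Cic-L-KO replicate 1 or Cic-L-KO replicate 5 the count of members fell from 5 to 3, namely Spry3, Spry4 and Spred3.

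Spry2, a Sprouty protein that binds the ubiquitin ligase Cbl, had 62.5 to 82.1 CPM (median 71.6) in WT cortex and 68.9 to 83.7 CPM (median 74.4) in the knockout, a log2 fold change of 0.12 ± 0.05 (SE, adjusted p = 0.0676). It passed in 3 of 10 other settings and without any of 5 libraries, WT replicate 8, Cic-S-KO replicate 5 and Cic-L-KO replicates 2, 6 and 8. Spry1 was not separable from WT, with a 95% interval of the log2 difference from -0.06 to 0.28.

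In Cic-S-KO cortex no member was separated from WT by the test. By edgeR 0 of 7 passed, where 6.53% of all genes tested did. At an unadjusted p under 0.05 there was 1, Spred1, and DESeq2 called that gene as well. Here and below, the share of all genes at an unadjusted p under 0.05 was not computed. Spred1 ran from 233 to 345 CPM (median 274) in Cic-S-KO cortex, and 4 of 7 samples were below all WT samples (log2 fold change -0.22 ± 0.08, SE, adjusted p = 0.0748). Leaving out WT replicate 2, Cic-S-KO replicate 4 or Cic-S-KO replicate 5 brought it past the threshold. The estimate in Cic-L-KO cortex was of like size, and the direct difference between the knockouts was -0.03, with a 95% interval from -0.19 to 0.12. In Cic-S-KO cortex 2 of 4 neuron markers were lower too, summing to 4785 to 5376 CPM. For Spred3 the Cic-S-KO interval against WT ran from -0.12 to 0.16, and for Spry4 from -0.43 to 0.14. In Spred3 2 of 7 Cic-S-KO samples were above all WT samples.

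The 2 knockouts compared directly differed in cortex in 5 of 7 members, all lower in Cic-S-KO, where 33.9% of all genes tested passed and 16.5% were lower. Both knockouts are set against the same WT samples above, while this comparison does not use WT levels. Spred3 in Cic-S-KO ran from 58.0 to 79.0 CPM (median 65.7), below every Cic-L-KO sample (log2 fold change -0.55 ± 0.07, SE, adjusted p = 3.78e-07). Spry3, from 8.37 to 11.6 CPM (median 10.4), was likewise below every Cic-L-KO sample (-0.45 ± 0.08, adjusted p = 0.000116). Spry4 was lower by the widest margin, with 16.3 to 30.1 CPM (median 19.6) and 5 of 7 samples below all Cic-L-KO samples (-0.70 ± 0.14, adjusted p = 0.000322). Spred2, at 106 to 171 CPM (median 123), had 4 of 7 samples below all Cic-L-KO samples (-0.46 ± 0.12, adjusted p = 0.00507), and Spry2, at 60.4 to 77.8 CPM (median 65.0), had 5 of 7 (-0.19 ± 0.06, adjusted p = 0.00787). These 5 calls held in all 10 other settings of the fit and with any library left out. A minimum log2 fold change of 0.5, counted apart from these settings, left only Spred3 and Spry4. Against Cic-L-KO cortex, Cic-S-KO cortex had 4 of 4 neuron markers higher and 4 of 5 endothelial markers lower. The part of these markers was not tested.

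**Figure D3:**
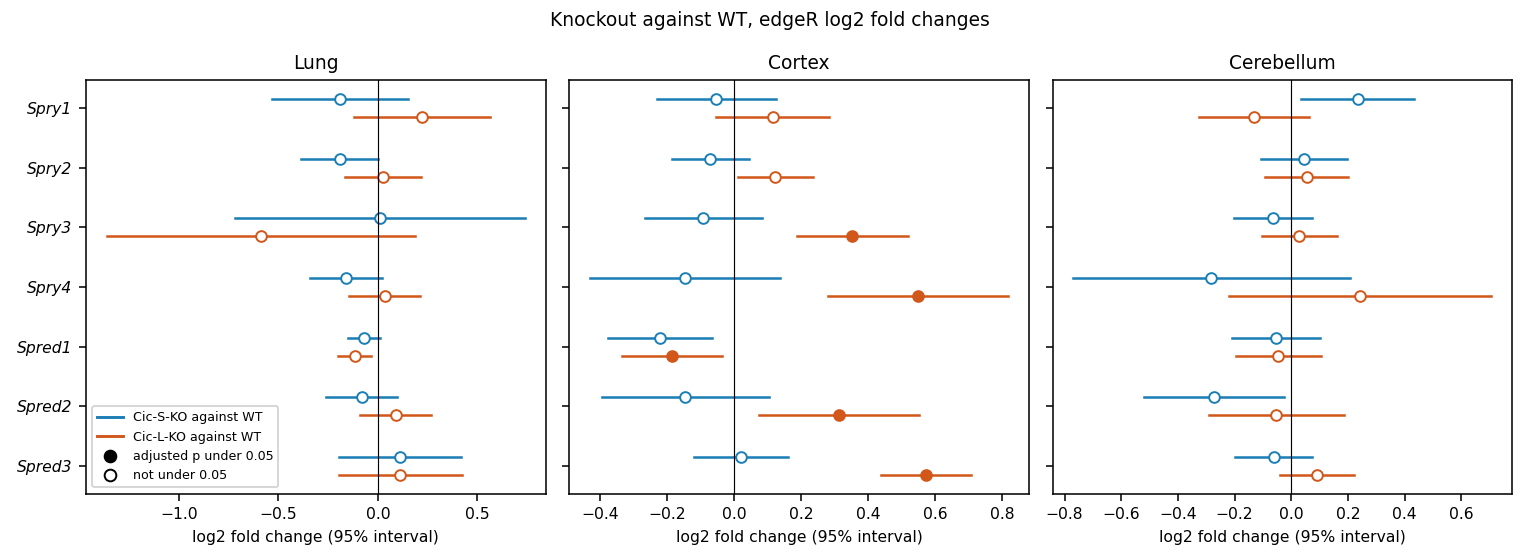
Log2 fold change of each gene against WT (horizontal axis) with its 95% interval, for Cic-S-KO and Cic-L-KO in each tissue; filled points passed an adjusted p of 0.05. The filled points are the 5 genes in Cic-L-KO cortex, from -0.19 for Spred1 to 0.57 for Spred3.

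In cerebellum no member passed against WT in either knockout by edgeR. In Cic-L-KO 0 of 7 passed, where 21.5% of all genes did, and 0 had an unadjusted p under 0.05. In Cic-S-KO 0 of 7 passed, where 8.23% did, and 2 had an unadjusted p under 0.05, Spry1 and Spred2. The percentages are at the adjusted threshold, and the unadjusted share of all genes was not computed. DESeq2 called 0 in each. Spry4 had the widest spread there, from 14.95 to 41.4 CPM (median 37.7) in WT, 14.4 to 39.9 CPM (median 26.95) in Cic-S-KO and 26.2 to 47.9 CPM (median 44.5) in Cic-L-KO. The 95% interval of its log2 difference between Cic-L-KO and WT, from -0.22 to 0.71, includes the value seen in cortex. For Spred3 the interval was narrower, from -0.04 to 0.22, and does not include it. In Cic-L-KO cerebellum 5 of 5 endothelial markers were higher, with 105 to 123 CPM against 57.7 to 87.1 CPM in WT, and 3 of 4 neuron markers lower.

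Spry1 was the only member for which the knockouts differed in cerebellum, where 12.4% of all genes tested did. Spry1, a feedback inhibitor of growth factor receptors, ran from 6.51 to 10.1 CPM (median 7.27) in Cic-S-KO and from 4.83 to 7.01 CPM (median 5.99) in Cic-L-KO, and 5 of 7 Cic-S-KO samples were above all Cic-L-KO samples. The log2 fold change was 0.37 ± 0.10 (SE, adjusted p = 0.0124), on 122 to 245 counts a library, and its adjusted p reached 0.0474 over the other settings and 0.0427 over the libraries left out. WT samples, from 5.23 to 7.69 CPM (median 6.46), lay between and overlapped both.

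The effect of losing the long isoform differed between the brain regions for Spred3 and Spry3, by an interaction term over both regions in which 23% of all genes tested passed. For Spred3 the log2 fold change was larger in cortex by 0.48 ± 0.09 (SE, adjusted p = 0.00011), and for Spry3 by 0.33 ± 0.10 (SE, adjusted p = 0.0195). Both calls held with any of the 46 brain libraries left out. For Spry4 the difference was 0.31 with a 95% interval from -0.22 to 0.84, and for Spred2 0.37 with an interval from 0.03 to 0.70 and an adjusted p of 0.108. For the effect of losing the short isoform 0 of 7 passed by edgeR, where 4.5% did, with 1 at an unadjusted p under 0.05, Spry1, and DESeq2 called 0. The interaction sets both regions' knockouts against their own WT samples and treats the 46 libraries as independent. Spry4, Spred1 and Spred2 varied together between regions in samples of the same number, as given below, so independence may not hold for them. More members passed for either isoform with a block for the sample number, as named in the closing section.

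In lung at postnatal day 6, edgeR called 0 of 7 members in Cic-S-KO, where 15.7% of all genes tested passed, and 0 of 7 in Cic-L-KO, where 4.89% passed. DESeq2 called 0 in each. At an unadjusted p under 0.05 the counts were 0 and 1. The latter was Spred1, with 158 to 173 CPM (median 162) in WT and 140 to 164 CPM (median 151) in Cic-L-KO, and 5 of 8 samples below all WT samples (log2 fold change -0.12 ± 0.04, SE, adjusted p = 0.0887). It passed the threshold without Cic-L-KO replicate 2. Between the knockouts 0 of 7 passed by edgeR and 0 by DESeq2, where 12.2% passed, and 3 had an unadjusted p under 0.05: Spry1, Spry2 and Spry4, each lower in Cic-S-KO. The 12.2% is at the adjusted threshold. How many of all genes had an unadjusted p under 0.05 was not computed, so the 3 cannot be set against a background. Spry1, the leading member in lung, ran from 90.1 to 198 CPM (median 122) in Cic-S-KO, from 91.8 to 198 CPM (median 146) in WT and from 132 to 220 CPM (median 172) in Cic-L-KO. Of the Cic-S-KO samples, 6 of 8 lay below all Cic-L-KO samples (log2 fold change -0.41 ± 0.16, SE, adjusted p = 0.11). Spry1 passed without Cic-S-KO replicate 4, and Spry4 without Cic-L-KO replicate 5. Spry1 and Spry2 passed between the knockouts with a block for the sample number, as named in the closing section. In Cic-S-KO lung 2 of 5 endothelial markers were lower against WT, summing to 2483 to 3408 CPM against 2952 to 3604 CPM. Of the 3 leukocyte markers tested 1 was higher, and their sum did not overlap, at 30.9 to 60.1 CPM against 17.1 to 23 CPM. Of 5 markers of mesenchyme and smooth muscle 1 was lower, summing to 2348 to 2985 CPM against 2676 to 3032 CPM, and 3 of 6 lung epithelial markers were higher. The part of these markers in the values of the members was not tested. Spry3 was too low in lung for more than a wide interval, from -1.36 to 0.18 for Cic-L-KO against WT.

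The rest of the pathway was read from lists of genes, described by counts alone. The lists were chosen with earlier results of these data known, so their shares beside those of all genes are description and no independent evidence. Of 19 other feedback inhibitors of the pathway, 9 passed in Cic-L-KO cortex, which is 47.4% beside 43.2% of all genes, with 3 higher and 6 lower and a median log2 fold change of -0.08. Among them Lrig1, which lowers levels of receptor tyrosine kinases, rose by 0.78 ± 0.07 (SE, adjusted p = 3.7e-09), Dok2, a docking protein that dampens Ras, rose by 0.92 ± 0.23 (SE, adjusted p = 0.00201), and Socs3, an inhibitor of cytokine receptors, had a log2 fold change of -0.59 ± 0.13 (SE, adjusted p = 0.000405). Of the 23 genes whose products bind Sprouty or Spred proteins or stand at the step they act on, 12 passed (52.2%), 3 higher and 9 lower. The largest change among these was in Siah2, at -0.26 ± 0.08 (SE, adjusted p = 0.00847). The ubiquitin ligase gene Cblb was higher by 0.20 ± 0.05 (SE, adjusted p = 0.00162), and Rasa1, a Ras GTPase-activating protein, was at -0.20 ± 0.04 (SE, adjusted p = 0.000272).

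Of 22 receptors and ligands whose signals these proteins limit, 21 were tested in Cic-L-KO cortex and 12 passed, which is 57.1% beside 43.2% of all genes. Of these 11 were higher and 1 lower, beside 21.4% higher and 21.9% lower of all genes. The growth factor gene Fgf18 rose by 1.05 ± 0.14 (SE, adjusted p = 2.2e-07) and the endothelial receptor gene Kdr by 0.80 ± 0.13 (SE, adjusted p = 2.5e-05), while Fgf10 had a log2 fold change of -0.76 ± 0.12 (SE, adjusted p = 6.04e-06). Kdr is itself among the 5 endothelial markers, of which 3 were higher in the same samples. The part of endothelium in its rise was not tested. Of the transcripts described as induced by ERK or held down by Capicua, 17 of 18 listed were in the table and Epha4 was not analysed here. In Cic-L-KO cortex 11 of the 17 passed, 7 higher and 4 lower, which is 64.7% beside the same 43.2% of all genes, with a median log2 fold change of 0.14. As said above, the lists were chosen with earlier results of these data known. The transcription factor genes Maff, Etv4 and Myc rose by 2.10 ± 0.18, 1.09 ± 0.08 and 0.90 ± 0.09 (SE, adjusted p = 3.49e-10, 5.79e-12 and 8.48e-10).

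In Cic-L-KO cerebellum, where 0 of the 7 Sprouty and Spred genes passed, 10 of those 17 transcripts did, 7 higher and 3 lower, beside 21.5% of all genes. Maff rose by 2.51 ± 0.18 (SE, adjusted p = 1.53e-10), and Egr1, an immediate early gene, had a log2 fold change of -0.82 ± 0.12 (SE, adjusted p = 6.82e-05). Of the other feedback inhibitors 5 of 18 tested passed, 1 higher and 4 lower. Dusp4, an ERK phosphatase, was the higher of these at 0.88 ± 0.19 (SE, adjusted p = 0.00269), and Rasal1, a Ras GTPase-activating protein, was at -1.31 ± 0.11 (SE, adjusted p = 2.03e-09). Receptors and ligands passed in Cic-L-KO cerebellum too, 12 of 21 tested, 9 higher and 3 lower, which is 57.1% beside 21.5% of all genes. In Cic-L-KO lung 1 of 19 other feedback inhibitors passed, 5.26% beside 4.89% of all genes: Dusp4, at 0.45 ± 0.09 (SE, adjusted p = 0.00311). Of the ERK or Capicua transcripts 3 of 15 tested passed there (20%), all higher. They were Maff at 1.15 ± 0.20, Etv4 at 0.40 ± 0.09 and Ccnd2 at 0.21 ± 0.06 (SE, adjusted p = 0.00139, 0.00792 and 0.0318). In Cic-S-KO lung 1 of those 15 passed, 6.67% beside 15.7% of all genes: Etv4, at 0.74 ± 0.09 (SE, adjusted p = 1.26e-05). Of the receptors and ligands 7 of 22 were lower and 0 higher there, which is 31.8% beside the same 15.7%. Fgf10, the mesenchymal growth factor of lung branching, was at -0.40 ± 0.08 (SE, adjusted p = 0.00139).

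Some members varied together from sample to sample within groups. Deviations of log2 CPM from the group mean were correlated for all 21 pairs of members in each tissue, 63 relations in all, with 2-sided p-values from 100000 permutations within groups that are not adjusted. Over 23 cortex samples Spred1 and Spred2 gave r = 0.878 (permutation p = 1e-05, the smallest these permutations can give; rho = 0.877, p = 2e-05), and r = 0.852 without the 2 samples farthest from the median of Spred1. Spry4 and Spred2 gave r = 0.821 in cortex (permutation p = 4e-05; rho = 0.832, p = 3e-05; 0.812 without the 2 farthest). In cerebellum Spred1 and Spred2 gave r = 0.735 (permutation p = 0.00023; rho = 0.765, p = 0.00016; 0.793 without the 2 farthest). In lung the closest relation was Spry1 with Spry2, r = 0.832 over 24 samples (permutation p = 1e-05, the smallest these permutations can give; rho = 0.812, p = 3e-05; 0.795 without the 2 farthest), a pair that in cortex gave r = -0.284 (permutation p = 0.218; rho = -0.336, p = 0.139; -0.353 without the 2 farthest). Relations with r over 0.5 numbered 9 of 21 in cortex, 8 in cerebellum and 6 in lung. The same share over pairs of all genes was not computed. In cerebellum 1 relation was below -0.5, Spry4 with Spred3 (r = -0.501, permutation p = 0.0176; rho = -0.32, p = 0.125; -0.352 without the 2 farthest). Samples of a tissue share depth and composition effects, whose part was not tested.

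Each cortex sample was set against the cerebellum sample whose labels carry its genotype and number, in 23 pairs. The labels do not say that a number marks 1 mouse. Spry4 tended to deviate from its group mean in the same direction in both regions, with r = 0.909 (rho = 0.923, permutation p = 1e-05 for each, the smallest that 100000 permutations within genotype can give) and r = 0.887 without the 2 pairs farthest from the median in cortex. Within WT, Cic-S-KO and Cic-L-KO r was 0.882, 0.930 and 0.936. WT replicate 4 had the lowest Spry4 of its group in both regions, 16.9 CPM in cortex and 14.95 CPM in cerebellum, while Cic-S-KO replicates 4 and 5 had the highest, 28.2 and 30.1 CPM in cortex and 39.9 and 38.7 CPM in cerebellum.

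Spred1 gave r = 0.854 (permutation p = 1e-05, the smallest possible; rho = 0.775, p = 0.00016; 0.803 without the 2 farthest), but r was 0.183 within Cic-L-KO, where Spred1 varied least. Spred2 gave r = 0.755 (permutation p = 5e-05; rho = 0.8, p = 3e-05; 0.766 without the 2 farthest). For Spry2 r was 0.374 (permutation p = 0.0885; rho = 0.397, p = 0.0645; 0.341 without the 2 farthest). For Spry1, Spry3 and Spred3 r was 0.129, 0.159 and -8.35e-05 (permutation p = 0.588, 0.516 and 1; rho = 0.0504, 0.206 and 0.0306, p = 0.832, 0.376 and 0.886; 0.147, 0.103 and 0.00112 without the 2 farthest). These 7 relations are unadjusted. Over 15840 genes the median of the same r was 0.0846, 5.3% of genes exceeded 0.5 and 0.423% exceeded 0.8, so Spry4 and Spred1 were in a small upper share of all genes.

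**Figure D4:**
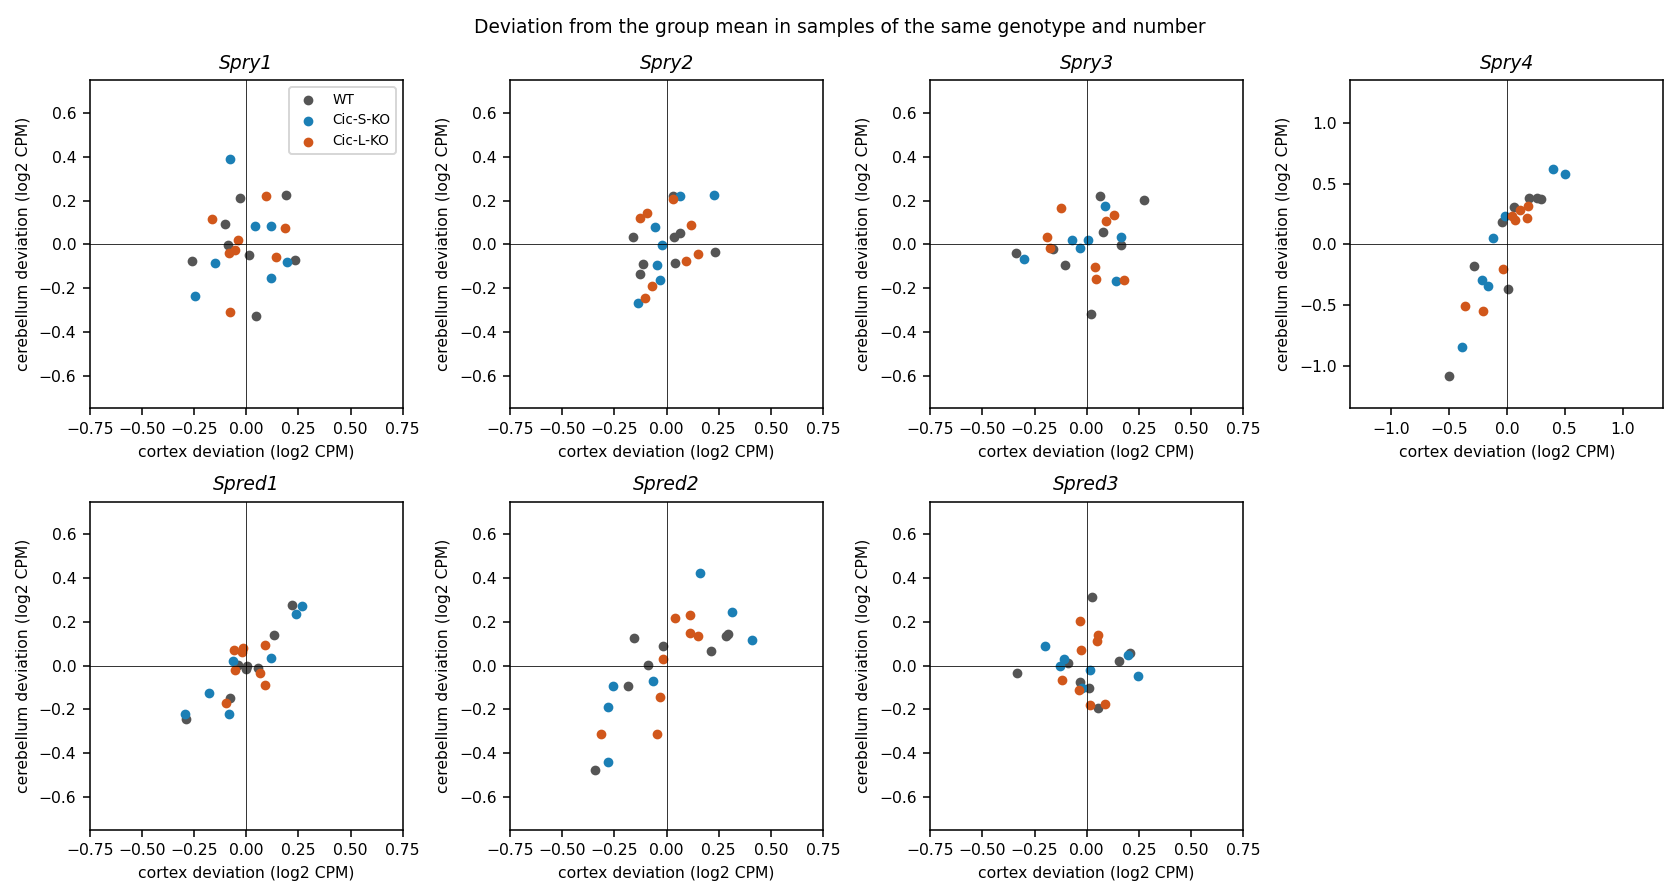
Deviation of log2 CPM from the group mean in cortex (horizontal axis) and in cerebellum (vertical axis) for 23 pairs of samples with the same genotype and number, 1 panel a gene; the Spry4 panel has wider axes. The points of Spry4, Spred1 and Spred2 follow a rising line (r = 0.909, 0.854 and 0.755), and those of Spry1, Spry3 and Spred3 do not.

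The genes whose pattern was most like each member were sought among 14299 genes, by Pearson r of deviations from the tissue mean over all 70 samples, as a description that includes genotype differences and shared library effects. Spry4 was most like Dusp4 (r = 0.838), followed by Bdnf, a neurotrophin gene (0.735), and Nostrin (0.728). Spred1 was most like Homer1, a postsynaptic scaffold gene (0.824), then Arih1 (0.758) and Papola (0.749). Spred2 was most like Arhgef7 (0.791), Nuak1 (0.768) and Prag1 (0.750). Spry1 was most like Dusp8 (0.704), Csnk1e (0.703) and Ppp1r15a (0.694), and Spry2 like Csnk1e (0.659), Acvr1 (0.659) and Znrf1 (0.611). Spred3 was most like Csdc2 (0.687), Cers4 (0.676) and Trim67 (0.670). Spry3 had the loosest match, with Zfp612 (0.508), Amd1 (0.507) and Chac2 (0.505).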

How the data were processed

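Polyadenylated RNA of flash-frozen tissue was sequenced, per the labels' protocols. The unit of the deposited table is raw counts, 1 whole number per gene and library. STAR 2.7 and GRCm38.p6 are named in the submitters' processing notes. The counting program, annotation and strand setting are not given in the sources used here. Of 50789 identifiers, 50725 matched GENCODE M21 with the version ignored.

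Counts were tested with edgeR 4.0.16 in R 4.3.3 (robust quasi-likelihood, filterByExpr, TMM, 3 genotypes of a tissue per fit, both brain regions together for interactions), called at an adjusted p under 0.05. Levels are CPM with TMM over all 70 libraries; correlations used log2 CPM with a prior count of 2. Alternatives (DESeq2 1.42.0 among them) are in the closing section. The script was tested on simulated data. Genes named beside the 7 members and Cic were up to 3 per list and comparison with the largest change past the threshold, of which a selection is printed, and the 3 most alike for each member. The members and lists were chosen with earlier results of these data known. Capicua octamers and promoter windows were searched as letters only.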

Additional observations from a re-analysis of the deposited data

Results flagged for a closer look

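In 5 of 63 groups of values (7 genes in 9 groups) the highest or lowest sample stood apart from the others by Dixon's criterion, where chance gives about 3.15. Spry3 in Cic-L-KO lung was 0.8297 CPM in replicate 4 and 0.168 to 0.418 CPM in the other samples. Spry4 in Cic-L-KO lung was 48.98 CPM in replicate 5 and 70.4 to 85.6 CPM in the others. Spred2 in Cic-L-KO cortex was 142.7 CPM in replicate 8 and 172 to 197 CPM in the others, and in WT cerebellum it was 97.62 CPM in replicate 2 and 127 to 150.2 CPM in the others. Spred3 in WT cerebellum was 33.19 CPM in replicate 4 and 23.3 to 27.8 CPM in the others.

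By the interaction test, the effect of losing the long isoform differed between cortex and cerebellum for Spry3 by 0.3251 and for Spred3 by 0.4803 on the log2 scale, both larger in cortex.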

How the results depend on the processing

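Counts of members past the threshold moved by over 1.5 times as follows. In Cic-L-KO against WT cortex the count of 5 became 3 without the low-count filter and 2 under a minimum size of 0.5 for the log2 fold change. That fold minimum also gave 2 in place of 5 for the knockouts compared in cortex, 0 in place of 1 for the knockouts in cerebellum, 0 in place of 2 for the interaction of Cic-L-KO and 3 in place of 5 for WT cortex against WT cerebellum. In Cic-L-KO against WT cortex the count was 6, with Spry2, under the Y-linked covariate, and 5 with Spry2 in place of Spred1 under a mean of at least 50 counts and under the GC adjustment. In Cic-S-KO against WT cortex, 0 became 1 (Spred1) with DESeq2. Leaving out 1 library gave 0 to 1 for Cic-L-KO against WT and for the knockouts compared in lung, 0 to 1 for Cic-S-KO against WT cortex, 3 to 6 for Cic-L-KO against WT cortex and 4 to 5 for WT cortex against WT cerebellum; the other counts did not move.

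Samples of different genotypes share replicate numbers. With the replicate block, the count became 2 (Spry1 and Spry2) in place of 0 for the knockouts in lung, 1 (Spred1) in place of 0 for the interaction of Cic-S-KO and 4 (Spry3, Spred1, Spred2 and Spred3) in place of 2 for that of Cic-L-KO, by either numbering, and 1 (Spred1) in place of 0 for Cic-S-KO against WT cortex when blocked by the number in the library name. No other count moved under the block. The numbers were not taken to pair the samples, since the labels do not say that a number marks 1 mouse. Deviations of cortex and cerebellum samples of the same number correlated above 0.1 in 16 of 23 pairs, and 10 of 23 samples were closest to their own number. Whether brain samples of the same number share a mouse was not tested, so their independence was assumed. Between genotypes no comparison had every pair above 0.1.

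For single members, 870 values under other settings kept their side of the threshold, 15 crossed below it and 15 above it. Among those 870, 5 that passed in neither setting changed sign. With 1 library left out, 2405 kept their side, 20 crossed below and 11 above. Among those 2405, 45 that passed in neither changed sign. No called value changed direction. The causes were not tested. Each lung library held 2 to 29 counts of Spry3.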
